A study of Mus musculus with 6 samples.

Results

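The genes Sox10, Foxd3, Erbb3, Tfap2b, Ngfr, Zeb2, Ets1 and Ret mark or build the neural crest and the glial cells that come from it, and were examined in brains of mouse embryos at stage E11.5. They were found by gene symbol in the probe annotation: all 8 genes, among 12393 on the arrays, were represented by 16 probe sets among 22626. A probe set is a group of short probes for 1 transcript region. Per the labels, 3 arrays held malformed brains of Swiss Albino embryos whose mothers had diabetes induced by streptozotocin, which destroys pancreatic beta cells, and 3 held brains of Swiss Albino embryos of normal mothers. Each array held 1 brain, and whether brains shared a litter is not stated, so the p-values measure the spread between these arrays. Diabetes of the mother and malformation of the brain occur in the same 3 embryos and cannot be told apart.

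Neural crest cells leave the dorsal edge of the closing neural tube, migrate, and form cranial sensory and autonomic neurons, Schwann cells and other peripheral glia, melanocytes and much of the skeleton and connective tissue of the face. A small set of transcription factors, SOX10, FOXD3, AP-2, ETS1 and ZEB2 among them, starts this programme. Receptors such as ERBB3, NGFR and RET let the migrating cells and the glia answer to growth factors. In embryonic brain tissue such transcripts can come from crest cells and ganglia attached to the brain as well as from the neural tube, where Zeb2, Tfap2b and Ret are also expressed. In whole brains, fewer cells of a type and less RNA per cell cannot be told apart.

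The values were probe set signals in 2 deposited tables. Diabetic replicates 1 and 2 and control replicates 1 and 2, hybridised to MOE430A chips, made up the first. The other held diabetic replicate 3 and control replicate 3, hybridised to Mouse430A_2 chips, and is called the second. Across genes, log2 signals correlated at 0.937 to 0.975 between arrays of 1 table and at 0.880 to 0.931 between tables, so each difference was taken within a table. The mean correlation with the other arrays of the first table was lowest for diabetic replicate 2, at 0.950, closely followed by control replicate 1, at 0.953. It was 0.963 for diabetic replicate 1 and 0.962 for control replicate 2. Control replicate 1 also stood apart in its 18S ribosomal RNA signal, 7891 against 101 to 265 elsewhere. Median signals of 165 to 227 per array give a scale for the signals below, which are not comparable between probe sets as transcript amounts. Of the markers of the labelled tissue all 11 of neural progenitors and all 12 of neurons passed the signal minimum described next, as did 8627 of 12393 genes, and so did all 16 markers of mesenchyme and meninges and 14 of 16 endothelial markers. Markers of red blood cells were bright. Their signals summed to 49611 and 57402 on the first-table diabetic arrays, against 43242 and 52238 on the controls there. In the second table the sum was 52888 on the diabetic array, against 50466 on the control. Of the 8 genes, 7 had a mean signal of at least 100 on their brightest probe set and were tested, and Foxd3 was under it.

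None of the 7 tested genes passed the test after adjustment. Zeb2 had the largest difference among them, lower in the diabetic group, with a log2 change of -0.46 ± 0.19 (SE, n = 3 arrays per group). Sox10 had 0.28 ± 0.18 on its brightest probe set, Tfap2b -0.32 ± 0.22 and Ngfr -0.28 ± 0.22, and the changes of Erbb3, Ets1, Ret and Foxd3 lay between -0.052 and -0.0038. These are differences of log2(signal + 32), which understates the change of dim genes. In limma, with the table as a block and Benjamini-Hochberg adjustment over 8627 genes, 0 of the 7 tested genes passed an adjusted p of 0.05, against a background of 0% of all genes, and their adjusted p ran from 0.647 to 0.997. At an unadjusted p under 0.05 limma called 1 of the 7, Zeb2, on the lower side, where it called 3.91% of all genes, and 0 on the higher side, where it called 3.73%. Over all genes this unadjusted count was 659, and 414 without control replicate 1. Taken by probe set, limma called 0 of the 13 tested ones after adjustment. At an unadjusted p under 0.05 it called 1 of the 13, that of Zeb2, on the lower side and 0 on the higher side, against 3.94% and 3.31% of the 14915 probe sets tested.

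Of the 7 tested genes 6 lay below 0, with a median log2 change of -0.052, beside 47.8% of all genes below 0 and a median of 0.012 over all genes. Without diabetic replicate 2 the count was 4 of 7 below 0, and in the first table alone it was also 4 of 7. The diabetic arrays of a table lay entirely below the control arrays of that table, in both tables, for 1 of the 7 genes, against 10.6% of all genes, and entirely above them for 0 of the 7, against 11.3%. The change in the first table and that in the second had opposite signs for 6 of the 8 genes, counting the first-table change of 0.0021 of Tfap2b. Opposite signs were found in 48.5% of all genes tested. Ngfr and Zeb2 had the same sign in both.

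**Figure D1:**
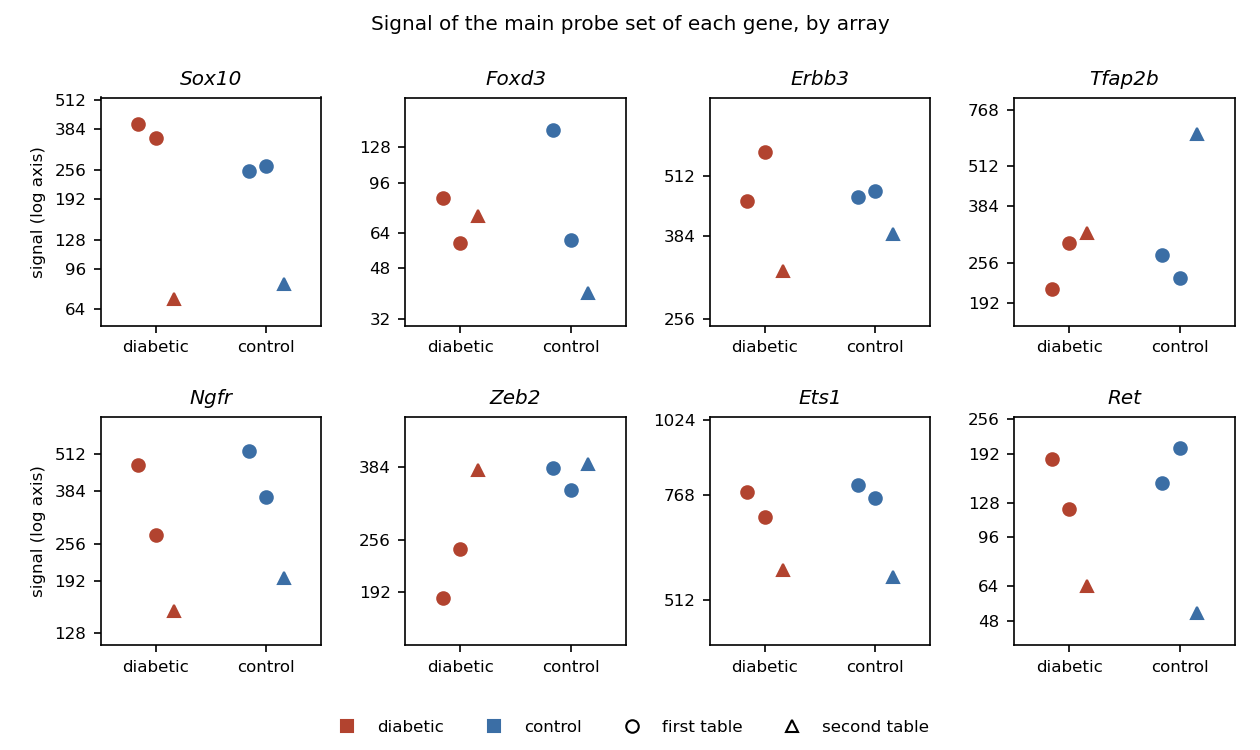
Signal of the brightest probe set of each of the 8 genes (vertical axis, log scale, each panel with its own range), with 1 point per array, diabetic left of control, circles for the first table and triangles for the second. The diabetic points lie below the control points of the same symbol for both symbols in Zeb2 alone, and there the second-table signals of 377 and 390 nearly coincide.

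Zeb2 encodes a zinc finger and homeodomain repressor of E-cadherin that is needed for crest cells to form and leave the neural tube, and that also acts in developing neurons and in myelinating glia. Its single probe set had signals of 186, 244 and 377 on diabetic replicates 1 to 3, against 382, 337 and 390 on control replicates 1 to 3. The diabetic arrays were the lower ones in each table, clearly so in the first and by a small margin in the second. The log2 change was -0.67 within the first table and -0.046 within the second, and whether these differ was not tested. Over both tables it corresponded to 0.725 times the control value, with a 95% interval of the log2 change from -0.89 to -0.040, an unadjusted limma p of 0.0349 and an adjusted p of 0.647. With single arrays left out the log2 change stayed between -0.67 and -0.31. The paralogue Zeb1, chosen after its values were seen, had 1863, 2565 and 1623 on diabetic replicates 1 to 3, against 1553, 1344 and 1660 on control replicates 1 to 3. Its log2 change was 0.38 ± 0.20 (SE, n = 3 arrays per group), with 0.59 within the first table and -0.032 within the second. The adjusted limma p of Zeb1 was 0.678. Over both tables the values of the paralogues lay on opposite sides of 0, and neither passed the test. Within the second table both lay slightly below 0.

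Because Zeb2 was the gene with the largest difference, the RefSeq promoter windows of its listed start sites were searched for the short motifs that factors of this group bind. A window runs from 250 bases before to 50 bases after a start, in build GRCm38.p6, and windows were listed for 4 of the 8 genes, Zeb2, Tfap2b, Foxd3 and Ngfr. The SOX motif ACAAAG, searched on both strands, was in 1 of the 7 windows of these genes and in 18.7% of all 32851 windows. The AP-2 motif GCCNNNGGC was in 2 of the 7 and in 16.6% of all, and CACCTG, the E-box that ZEB proteins bind, was in 0 of the 7 and in 20.2% of all. The matches were all at Zeb2, and the 2 windows with the AP-2 motif overlap and share it. One window with each motif is shown with the motif in capitals, AP-2 in the first and SOX in the second:
Zeb2, chr2:45113230-45113529, minus strand: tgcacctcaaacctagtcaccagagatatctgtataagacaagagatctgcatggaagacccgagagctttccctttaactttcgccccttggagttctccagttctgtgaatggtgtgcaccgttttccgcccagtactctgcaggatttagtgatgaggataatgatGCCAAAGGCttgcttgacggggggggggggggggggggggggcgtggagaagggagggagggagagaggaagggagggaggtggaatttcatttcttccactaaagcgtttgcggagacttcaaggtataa
Zeb2, chr2:45110228-45110527, minus strand: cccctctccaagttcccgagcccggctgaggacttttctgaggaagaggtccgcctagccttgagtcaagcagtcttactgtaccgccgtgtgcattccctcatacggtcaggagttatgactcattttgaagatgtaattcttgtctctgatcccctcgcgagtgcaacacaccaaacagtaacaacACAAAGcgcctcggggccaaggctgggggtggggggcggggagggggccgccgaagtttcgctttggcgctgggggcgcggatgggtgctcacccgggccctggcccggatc
A match describes the letters of a window and does not show that a factor binds there.

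Sox10 encodes the SOX-family factor that keeps crest cells multipotent and is needed for all peripheral glia and for melanocytes. Its 3 tested probe sets gave different pictures. The brightest, 1424985_a_at, had signals of 403, 352 and 70.8 on diabetic replicates 1 to 3, against 252, 267 and 82.0 on control replicates 1 to 3. Both diabetic arrays of the first table were above both controls, and the diabetic array of the second table was slightly below its control. The log2 changes were 0.49 within the first table and -0.15 within the second, and over both the 95% interval ran from -0.13 to 0.68, with an adjusted limma p of 0.712. Probe set 1425369_a_at had 228, 104 and 31.6 on diabetic replicates 1 to 3, against 100, 133 and 21.9 on control replicates 1 to 3. Here the groups overlapped in the first table, diabetic replicate 1 being high, and the log2 change was 0.31 ± 0.24 (SE, n = 3 arrays per group). It was 0.034 without diabetic replicate 1 and 0.57 without diabetic replicate 2. Probe set 1451689_a_at had 197, 183 and 73.4 on diabetic replicates 1 to 3, against 173, 220 and 145 on control replicates 1 to 3. Its log2 change was -0.27 ± 0.20 (SE, n = 3 arrays per group), with -0.035 within the first table, which is also its value without either second-table array, and -0.75 within the second, so it lay on the other side of 0 from the other two. In a fit over 14915 probe sets the adjusted limma p of the 3 probe sets ran from 0.728 to 0.756, so the sign of a Sox10 difference is not settled by these arrays.

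The same values can be written as a ratio within each array, which adds no independent evidence. The log2 ratio of 1424985_a_at over 1451689_a_at was 0.93, 0.84 and -0.035 on diabetic replicates 1 to 3, against 0.47, 0.25 and -0.64 on control replicates 1 to 3. The ratio was higher on each diabetic array than on every control array of its table, by 0.55 over both tables. The ratio was described after its values were seen. An exact permutation test over 12 arrangements of the group labels gave p = 0.167 for it. That is the smallest p this test can give with these arrays, so it cannot decide whether the ratio differs between the groups. The corresponding ratio to 1425369_a_at overlapped between the groups, with a difference of -0.035. So did the ratio of 1451689_a_at over 1425369_a_at within the first table, with a difference of -0.59 over both tables.

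**Figure D2:**
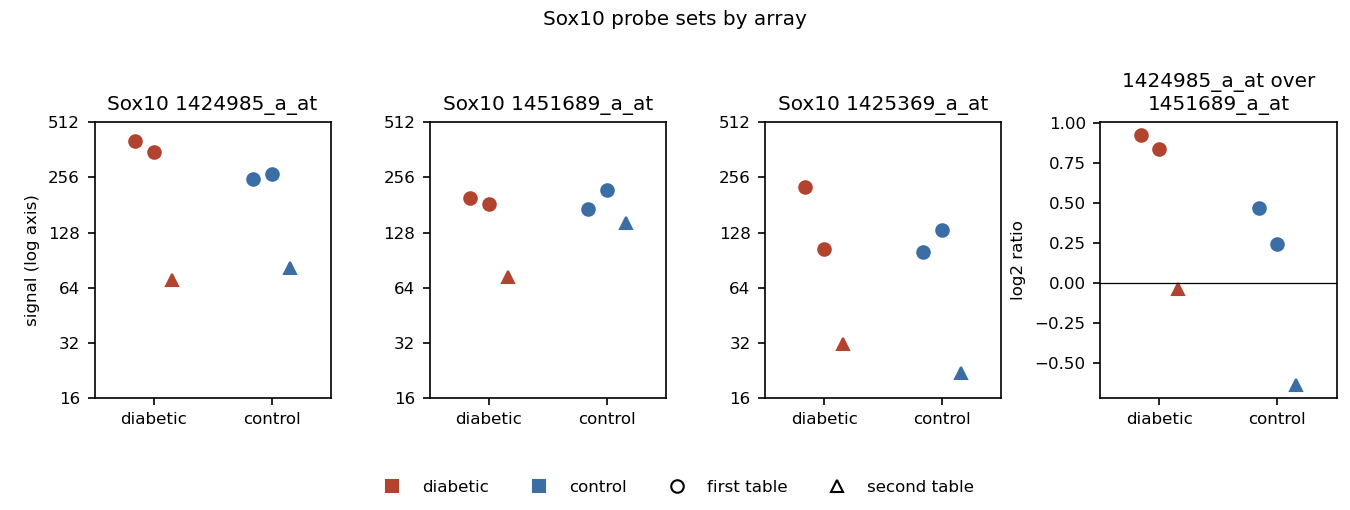
Signals of the 3 Sox10 probe sets (log axis, same range) and, at right, the log2 ratio of 1424985_a_at over 1451689_a_at, 1 point per array, diabetic left of control, circles for the first table and triangles for the second. The first-table diabetic signals stand above the controls only for 1424985_a_at. The ratio, picked after its values were seen, is higher on the diabetic arrays of each table, with 1 array per group in the second.

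Foxd3 encodes a winged-helix factor that is among the earliest in premigratory crest and holds back the melanocyte fate. Its only probe set was dim, with 85.1, 59.2 and 73.4 on diabetic replicates 1 to 3, against 147, 60.4 and 39.3 on control replicates 1 to 3. In the first table diabetic replicate 1 lay between the controls and diabetic replicate 2 just below both. In the second the diabetic array was the higher. The log2 change of -0.023 was not tested, and it was -0.32 within the first table and 0.56 within the second.

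Tfap2b encodes an AP-2 factor of the crest, the dorsal neural tube and sympathetic neurons. It had 213, 295 and 318 on diabetic replicates 1 to 3, against 272, 230 and 645 on control replicates 1 to 3. The first-table arrays overlapped with a log2 change of 0.0021, and the whole difference came from the second table, where the control array had the highest signal of all 6 and the change was -0.95. The 95% interval over both tables ran from -0.82 to 0.19 and the adjusted limma p was 0.734. Tfap2a, the paralogue with the widest crest role and chosen after its values were seen, had a log2 change of -0.34 ± 0.21 (SE, n = 3 arrays per group), with -0.13 within the first table and -0.78 within the second. Its other probe sets had -0.083 and 0.52, and its adjusted limma p was 0.710.

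Ets1 encodes an ETS factor that helps cranial crest cells delaminate and is also expressed in endothelium. Its brightest probe set had 777, 705 and 576 on diabetic replicates 1 to 3, against 798, 758 and 560 on control replicates 1 to 3. The groups lay close together, the log2 change was -0.033 ± 0.15 (SE, n = 3 arrays per group), and the 95% interval from -0.37 to 0.30 bounds a difference more tightly than for any other of the 7 genes. The other 3 probe sets had -0.099, 0.19 and -0.099 and also overlapped between the groups. Its adjusted limma p was 0.963. Of 14 tested endothelial markers 8 lay below 0, with a median of -0.018, which was -0.17 within the first table and 0.31 within the second.

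Erbb3 encodes the neuregulin receptor on which Schwann cell precursors depend for survival and migration. The brighter probe set had 454, 576 and 323 on diabetic replicates 1 to 3, against 464, 477 and 387 on control replicates 1 to 3. The groups overlapped in the first table, diabetic replicate 2 being the highest array, and the diabetic array was the lower in the second. The log2 change was -0.0038 ± 0.17 (SE, n = 3 arrays per group) with a 95% interval from -0.38 to 0.37 and an adjusted limma p of 0.997. The other probe set had signals of 2.95 to 28.2 on all arrays, too dim to test.

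Ngfr encodes p75, the low-affinity neurotrophin receptor used to recognise migrating crest cells and immature Schwann cells. Its brightest probe set had 471, 274 and 152 on diabetic replicates 1 to 3, against 526, 366 and 197 on control replicates 1 to 3. Diabetic replicate 1 lay between the controls of its table, and the other diabetic arrays were below theirs. The log2 change was -0.28 ± 0.22 (SE, n = 3 arrays per group), with -0.26 within the first table and -0.31 within the second, the adjusted limma p was 0.746, and without diabetic replicate 2 the change was -0.081. It was -0.15 without control replicate 1 and -0.040 with array weights. A second probe set at a mean signal of 103 had -0.28 ± 0.24, but 0.21 in the second table and -0.0039 without diabetic replicate 2. The third, at a mean signal of 20.1, was not tested.

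Ret encodes the receptor for the GDNF family, needed by enteric and sympathetic crest cells and also expressed in motor and sensory neurons. It had 184, 121 and 63.9 on diabetic replicates 1 to 3, against 151, 201 and 51.0 on control replicates 1 to 3. The groups overlapped in the first table, and the diabetic array was the higher in the second. The log2 change was -0.052 ± 0.19 (SE, n = 3 arrays per group), with a 95% interval from -0.49 to 0.38 and an adjusted limma p of 0.950.

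**Figure D3:**
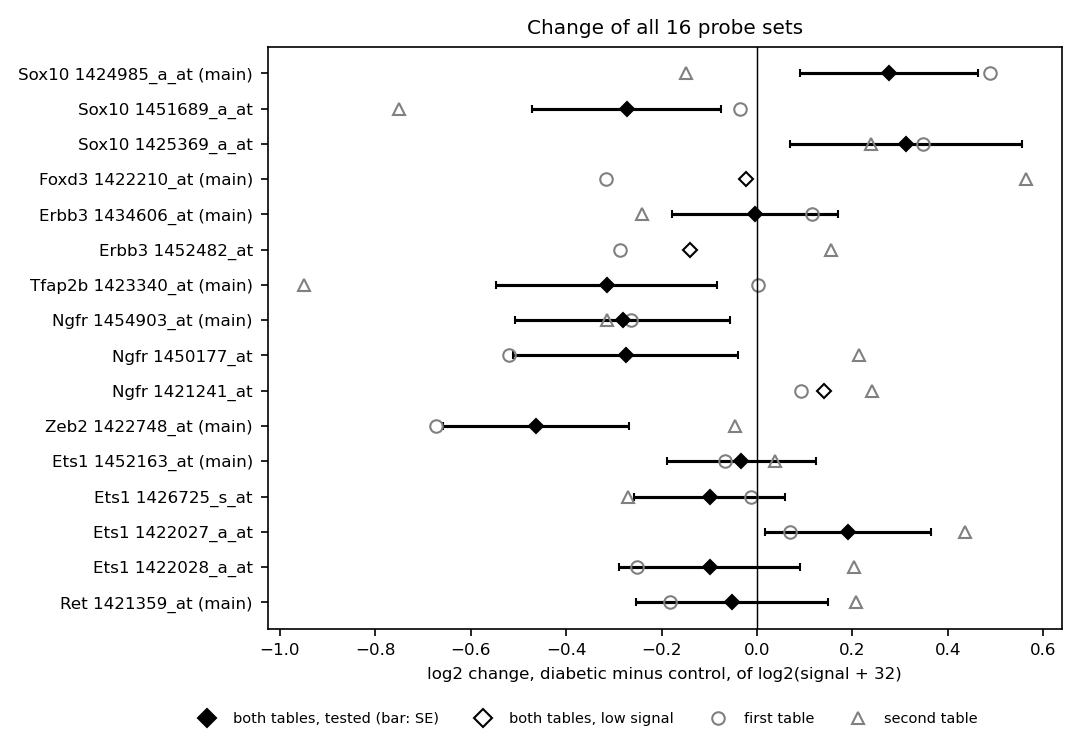
Log2 change, diabetic minus control, of all 16 probe sets (horizontal axis), with filled diamonds and SE bars for the 13 tested ones, open diamonds for the 3 under the signal minimum, and the change within each table as open circles and triangles. Table values often fall on opposite sides of 0, and the Sox10 probe sets lie at 0.28, -0.27 and 0.31.

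**Figure D4:**
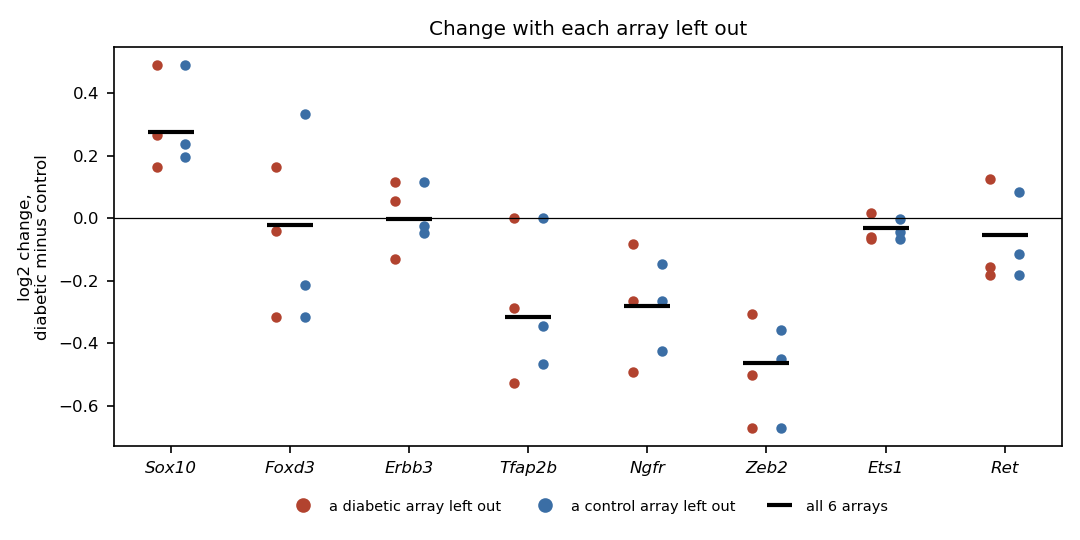
Log2 change, diabetic minus control, of each gene (horizontal black bars, all 6 arrays) and with each single array left out (red points, a diabetic array; blue points, a control array). Sox10 stays above 0 and Ngfr and Zeb2 stay below 0, while Foxd3, Erbb3, Tfap2b, Ets1 and Ret have points on both sides.

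The genes whose within-table profiles were most like those of the 7 tested genes were ranked by the mean absolute difference of table-centred log2 values over the 6 arrays. For Zeb2 these were Tfpi, an inhibitor of coagulation, at 0.037 and Myod1, a muscle regulator, at 0.048, beside a median of 0.28 over all genes. For Sox10 they were Mogs at 0.030 and Gltp at 0.031, and for Ngfr Kdm6a at 0.032 and Cep68 at 0.034. For Tfap2b they were Nckap5l at 0.052 and Fignl1 at 0.059, and for Ret Cartpt at 0.024 and Ptprz1 at 0.032. Cct2 and Igfbp6 were nearest to Erbb3, and Gpr89 and Psme3ip1 to Ets1, with differences of 0.0085 to 0.019. All these differences were picked as the smallest over 8627 genes and lie far under the median for that reason, so the ranking is only a description. None of the 7 tested crest genes was among the 2 nearest genes of another. With only 2 genes picked out of 8627 each time, such a hit would be rare for any small set. Its absence therefore does not bear on whether these genes change together.

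The partners of the receptors were examined next. Erbb2, the kinase that pairs with ERBB3, had 389, 439 and 227 on diabetic replicates 1 to 3, against 322, 305 and 163 on control replicates 1 to 3. All diabetic arrays were above the control arrays of their table, as were those of 11.3% of all genes tested. The log2 change of Erbb2 was 0.38 ± 0.15 (SE, n = 3 arrays per group), 0.37 within the first table and 0.41 within the second. It did not pass in limma, with an unadjusted p of 0.0306 and an adjusted p of 0.647, and with single arrays left out it stayed between 0.34 and 0.43. At an unadjusted p under 0.05 limma called 3.73% of all genes on the higher side. Egfr, another receptor of the family, had 0.11 ± 0.16, and Nrg3, Nrg4 and Erbb4 were under the signal minimum, while Nrg1 and Nrg2 were not analysed here.

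Among 9 tested genes of RET and neurotrophin signalling 5 lay above and 4 below 0, with a median of 0.060, and 0 passed in limma. Gfra3, the co-receptor for artemin, had 217, 175 and 103 on diabetic replicates 1 to 3, against 325, 412 and 75.2 on control replicates 1 to 3. It was lower in the first table with -0.81 and higher in the second with 0.33, so the log2 change was -0.43 ± 0.24 (SE, n = 3 arrays per group). Nrtn, the ligand neurturin, had 0.41 ± 0.26, with 0.12 without diabetic replicate 1, 0.21 without control replicate 1 and 0.64 without diabetic replicate 2. Ntrk2, the receptor for BDNF, had -0.26 ± 0.17. Gfra1 and Gfra2, the co-receptors for GDNF and neurturin, had 0.11 and -0.084, with another Gfra1 probe set at -0.44, and Bdnf had -0.091. The probe sets of Gdnf and Ntrk3 were under the signal minimum.

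Of 20 tested neural crest specifier genes 10 lay above and 10 below 0, with a median of -0.0048, and 0 passed in limma. Msx1, a homeobox gene of the dorsal midline, had 915, 619 and 516 on diabetic replicates 1 to 3, against 1272, 968 and 694 on control replicates 1 to 3. Its diabetic arrays were below the controls in both tables, as were those of 10.6% of all genes tested. The log2 change of Msx1 was -0.50 ± 0.19 (SE, n = 3 arrays per group), with an adjusted limma p of 0.647. Cdh6, a cadherin of early crest, stood on the other side with 0.44 ± 0.18, 0.63 within the first table and 0.060 within the second, and the same adjusted p. Of the 20 genes, 16 were lower on the diabetic array of the second table, where 4007 of all 8627 genes were, and 9 had a change below 0 within the first. The second table holds 1 array per group.

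Genes of the lineages that the crest and the glial programme give rise to had medians below 0 over both tables, and 0 of them passed in limma. In the second table alone, 1 array against 1, the medians were 0.014 for Schwann cells and oligodendrocytes, 0.030 for melanoblasts and 0.12 for sensory and autonomic neurons. Of 15 tested genes of Schwann cells and oligodendrocytes 10 lay below 0, with a median of -0.10. Fabp7, which carries fatty acids in radial glia and in precursors of Schwann cells, had -0.62 ± 0.22 (SE, n = 3 arrays per group), and Pdgfra, a receptor of oligodendrocyte precursors and mesenchyme, had -0.42 ± 0.20, with -0.00044 on its other probe set. Without diabetic replicate 2 the list had 7 of 15 below 0 and a median of 0.0067. Of 7 tested melanoblast genes 5 lay below 0, with a median of -0.15, and without diabetic replicate 2 these were 4 of 7 and -0.00026. Ednrb, the endothelin receptor of melanoblasts and enteric crest, had -0.29 ± 0.19 but 0.33 on its other probe set, and Slc45a2, a pigment transporter, had 0.35 ± 0.20. Of 12 tested genes of sensory and autonomic neurons 9 lay below 0, with a median of -0.17. Neurod1, a differentiation factor of neurons, had -0.55 ± 0.21, and Dbh, an enzyme of noradrenaline synthesis, had -0.22 ± 0.15. Whether the values of this list came from sensory and autonomic neurons or from neurons of the brain itself was not tested. Without diabetic replicate 2 this list had 5 of 12 below 0 and a median of 0.019.

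Mesenchyme and neurons also express Zeb2, and most of their markers had values below 0 too. Of 16 tested markers of mesenchyme and meninges 14 lay below 0, with a median of -0.25. Without diabetic replicate 2 these counts were again 14 of 16, with a median of -0.24. The signals of the 16 summed to 30441 and 31210 on the first-table diabetic arrays, against 28552 and 32629 on the controls there. In the second table the sum was 30302 on the diabetic array, against 33354 on the control. Vim was among the 2 markers above 0, with a log2 change of 0.28, and made up 10057 to 15388 of each sum. The sums therefore do not describe the other markers. Of the 16 markers, 13, 12 and 12 were below the control mean of their table on diabetic replicates 1 to 3. On control replicates 1 and 2 these counts were 10 and 6. Of 12 tested neuronal markers 10 lay below 0, with a median of -0.31, which was -0.58 within the first table and 0.16 within the second. Their signals summed to 11637 and 7855 on the first-table diabetic arrays, against 15365 and 14635 on the controls there. In the second table the sum was 18024 on the diabetic array, against 16168 on the control. On diabetic replicate 2 all 12 were below the control mean, and without that array 6 of 12 lay below 0 with a median of 0.00040. The part of these markers in the Zeb2 values was not tested. Pdgfra counts both among them and among the glial genes, and Stmn2 among both the neuronal markers and the sensory and autonomic genes. Fabp7 counts among the glial and the neural progenitor genes, and Twist1 among the crest specifiers and the mesenchyme. Of 9 tested surface ectoderm markers, which bear on Tfap2b, 4 lay below 0, with a median of 0.050. Their signals summed to 3311 and 3664 on the first-table diabetic arrays, against 3204 and 2859 on the controls there. In the second table the sum was 2011 on the diabetic array, against 2237 on the control. The surface ectoderm median was 0.13 within the first table. Within the second, where the Tfap2b difference lay, it was -0.12 with 6 of the 9 below 0. With single arrays left out the surface ectoderm median lay between -0.045 and 0.13. Macrophage, neural progenitor and erythroid markers had medians of -0.26, 0.13 and 0.089 over 6, 11 and 8 tested genes, and 0 genes of any list passed in limma. The macrophage median was -0.019 without diabetic replicate 2, and in the first table alone those of neural progenitors and erythroid cells were -0.077 and -0.060.

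**Figure D5:**
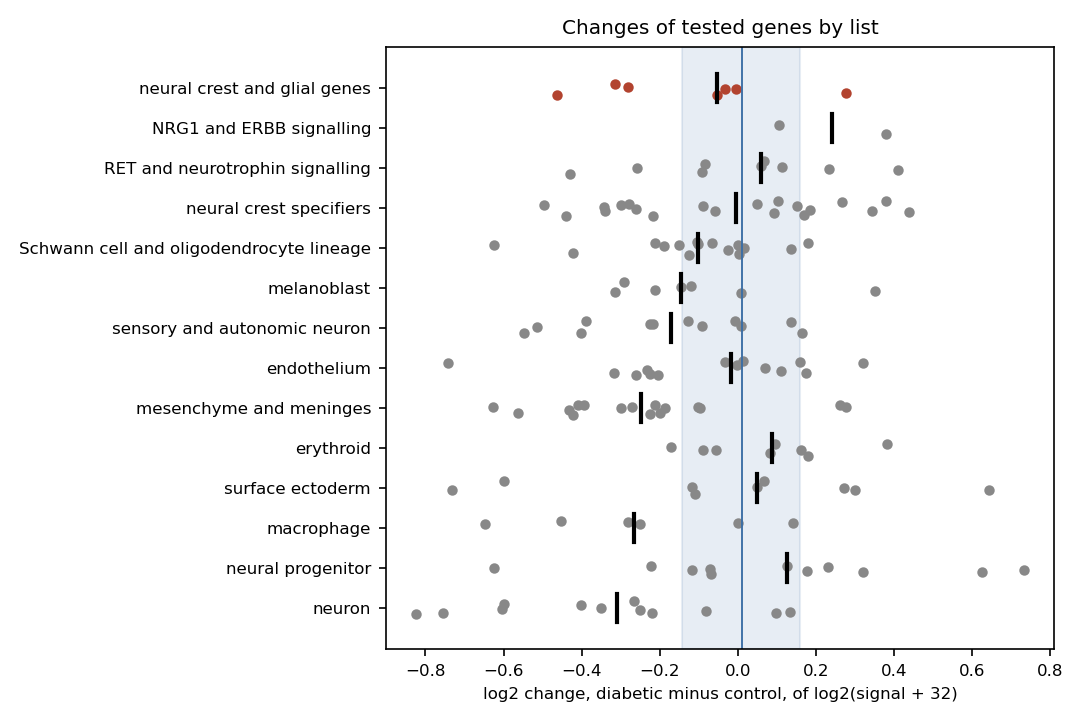
Log2 change, diabetic minus control, of each tested gene (points) by list, with the list median as a black bar, and the median and middle 50% of all 8627 genes as a blue line and band. The neural crest and glial genes (red) run from -0.46 to 0.28 with a median of -0.052, with Zeb2 at the low end and Sox10 at the high end.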

How the data were processed

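Expression was measured on 6 Affymetrix arrays, 3 per group, grouped and numbered by the sample titles. The authors deposited intensity values on a linear scale, 1 per probe set. The submitters' processing notes name GCOS, and how it was run is not stated in the sources at hand. Trimmed means of the deposited arrays, leaving out 2% at either end, lay near 500. Chip types were taken per the file headers of the run settings.

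Each array was set to a trimmed mean of 500, which moved it by at most 0.0363%, and log2(signal + 32) was used from there. The probe set with the highest mean of these log2 values stood for its gene, and the linear mean picked the same one for all 8 genes. Testing used limma 3.58.1 under R 4.3.3 on genes averaging a signal of 100 or more, two-sided, with the table as a block and 3 residual plus 6.48 prior degrees of freedom. P-values were adjusted by Benjamini-Hochberg over all genes, with a threshold of 0.05, and the smallest was 0.527. Arrays have no counting depth, their number limits the precision, and the median SE was 0.17. The fit was tested on simulated data.

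Members and gene lists were chosen with earlier results of these data known. Named genes were the 8 members, a fixed set of their direct ligands, receptors and co-receptors, the 2 genes of smallest p in each list of partners or lineages, and the 2 genes nearest in profile to each tested member. Zeb1 and Tfap2a were added as paralogues after their values were seen. Figures were drawn with matplotlib 3.10.9. Alternatives covered the pseudocount, normalization, filter, choice of probe set, block, array weights, single tables and single arrays left out.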

Additional observations from a re-analysis of the deposited data

How the results depend on the processing

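Under all 16 alternatives that gave a test, limma called 0 genes, and the unadjusted count ran from 414, without control replicate 1, to 883, with array weights, and up to 839 with single arrays left out. Of the named genes, Zeb2, Ngfr, Erbb2, Msx1, Cdh6, Fabp7, Nrtn, Slc45a2, Neurod1, Dbh and the 2 other Sox10 probe sets kept their sign in every alternative run, and with single arrays left out Sox10 ran from 0.16 to 0.49. The lowest adjusted p for a member was 0.350, for Zeb2. The median over the members was -0.16 at a minimum signal of 200, -0.15 in the second table, and -0.16 to -0.043 with single arrays left out. Signs changed with a pseudocount of 8 (Foxd3 0.0062), with a larger pseudocount (Erbb3 0.0011) and with quantile normalization (Erbb3 0.0041). They changed in the first table alone for Erbb3 (0.11), Tfap2b (0.0021), Gfra1 (-0.11) and Bdnf (0.19). In the second table alone, 1 array against 1 and without a test, the values were -0.15 for Sox10, 0.56 for Foxd3, 0.037 for Ets1, 0.21 for Ret, 0.33 for Gfra3, 0.045 for Ntrk2, 0.30 for Gfra2, 0.014 for Pdgfra and -0.032 for Zeb1, with 0.16, 0.21 and 0.20 for probe sets 1452482_at of Erbb3, 1450177_at of Ngfr and 1422028_a_at of Ets1. With the mean of all probe sets of a gene, Egfr had -0.017, Gfra1 -0.17, Gfra2 0.13, Bdnf 0.032, Ednrb 0.019 and Tfap2a 0.030, and Bdnf had 0.15 with array weights. With single arrays left out the ranges that crossed 0 were -0.32 to 0.33 for Foxd3, -0.13 to 0.11 for Erbb3, -0.53 to 0.0021 for Tfap2b, -0.068 to 0.015 for Ets1, -0.25 to 0.048 for Ets1 probe set 1422028_a_at, -0.18 to 0.13 for Ret, -0.11 to 0.31 for Gfra1, -0.28 to 0.048 for Gfra2 and -0.38 to 0.19 for Bdnf. The cause of these shifts was not tested.

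With the replicate number as a replicate block limma called 0 genes, with 627 genes at an unadjusted p under 0.05, and no call changed. Same-numbered arrays of the first table did not deviate together (r = -0.0091 across genes), and replicate 3 is alone in its group within its table, so the numbers were not taken as pairs. Low signals limit Foxd3, and 1 array per group limits the second table.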
